A study of Mus musculus with 22 samples.

Results

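Immediate early genes are switched on within minutes of a stimulus without new protein synthesis. The 37 members described here were chosen by gene symbol, as the AP-1, EGR, NR4A, Krüppel-like factor, MAP kinase phosphatase, GADD45 and related rapid genes. Tissue dissociation is also known to raise this set. The list was drawn up with earlier results of these data known. All 37 were found among the 55414 genes of the count table, and all 37 were among the 17554 genes that passed the filter on low counts. They were measured by RNA sequencing of fibroblasts sorted from mouse back skin after surgery, with or without a device that stretches the skin. In the EXP arm an expander hydrogel was put beneath the skin near the neck through a cut close to the tail. In the CTRL arm the mice had the same incision and subcutaneous path but no expander, so both arms carry the surgery. Skin was sampled on day 1 (4 CTRL and 5 EXP libraries), day 2 (3 CTRL and 3 EXP) and day 4 (4 CTRL and 3 EXP), 22 libraries in all. Strain, age and sex of the mice are not given in the labels. The tissue was cut out and broken down to single cells by digestion. Live, DAPI-negative cells lacking CD31, CD45, CD117 and EpCAM and positive for CD34 and PDGFRα were sorted, so every library comes from cells that passed through digestion and sorting. The labels number the libraries of a group but do not say whether each came from a separate mouse, so p-values measure the spread between these libraries.

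As background, growth factor receptors, stretch and stress signal through the ERK, JNK and p38 MAP kinases to factors already sitting on DNA, among them SRF with its ternary complex partners and CREB. These factors start transcription of the immediate early genes. Many of the products are themselves transcription factors (FOS and JUN proteins, which pair as AP-1, the EGR zinc fingers and the NR4A orphan nuclear receptors), and others shut the response down (DUSP phosphatases, which remove phosphate from MAP kinases, and ZFP36, which promotes decay of AU-rich messenger RNAs). Their messenger RNAs are short-lived, so a level reflects recent signalling, whether in the animal or during handling. In skin fibroblasts AP-1 factors are known for their part in the control of matrix and protease genes.

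Levels are given as CPM, counts scaled to a common library size, on library totals scaled by the trimmed mean of M values (TMM). Fold changes are EXP over CTRL on the log2 scale. They come from edgeR's quasi-likelihood test with its standard error (SE), fitted on all 22 libraries, with p-values adjusted by the Benjamini-Hochberg method over all 17554 genes. A gene was called higher or lower, and is said to have risen or fallen, where the adjusted p was under 0.05. Library totals ran from 21461294 to 30210204 counts, so that the floor of 3 counts corresponds to at most 0.157 CPM. All 9 fibroblast markers, Pdgfra and Cd34 among them, were above that floor in every group. One feature separates libraries without regard to arm. A module of 192 genes that vary with Rnf10 within groups (r over 0.9, none of them a member) stood high in 7 libraries (CTRL 1, 2 and 3 and EXP 1 and 2 of day 1, CTRL 3 and 4 of day 4) and low in the other 15. What separates these libraries is not given in the sources used here. Counts of members called on days 1 and 4, in the joint tests over days and between days 1 and 4 are given with and without the split. Comparisons of day 2 with day 1 and of day 4 with day 2 are given without the split only.

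More immediate early genes fell than rose in the fibroblasts of expanded skin on each day by edgeR on all 22 libraries. The exceptions among the alternatives run were day 1 without TMM scaling, with 3 down and 3 up, and the low-side libraries of day 4 alone, with none called. On day 1, 7 members fell and 2 rose, where 14.7% of all genes tested fell and 13.9% rose. Thus 9 of 37 members were called on a day when 28.6% of all genes were. On day 2, 13 members fell and 3 rose, where 5.71% of all genes fell and 7.72% rose (13.4% in all). The day 2 counts were 6 down and 1 up without CTRL 2 or without EXP 1, and 7 down and 1 up without EXP 3. The shares of all genes without these libraries are not given here. On day 4, 13 members fell and 1 rose, where 9.66% of all genes fell and 12.8% rose (22.5% in all). The estimate was below 0 for 24 of the 37 on day 1, 32 on day 2 and 31 on day 4. The median log2 fold change of the members was -0.23, -0.87 and -0.78 on the 3 days, against 0.02, 0.02 and 0.03 over all genes tested. Beside single genes, the settings that ended a call are those other than a replicate block and the subsets of high-side or low-side libraries. In these bulk libraries fewer cells expressing a gene and less RNA per cell cannot be told apart.

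Without a model, the share of members whose EXP libraries all lay below all CTRL libraries was above that of all genes on days 2 and 4 and not on day 1. On day 2, 24 members had every EXP library below every CTRL library, which 18.4% of all genes did, and 3 had every EXP library above, which 20.9% did. On day 1 the arms did not overlap for 4 members lower in EXP (12.2% of all genes) and 2 higher (11.7%). On day 4 this held for 14 members lower in EXP (11.8% of all genes) and 1 higher (13.8%). Scaling changes this split. With library totals that are not TMM-scaled, the median of all genes moved up to 0.21, 0.49 and 0.36 on days 1, 2 and 4. The members called became 3 higher and 3 lower on day 1, 3 and 5 on day 2, and 3 and 11 on day 4. With the same totals, 5130, 4631 and 5287 of the 17554 genes were called on days 1, 2 and 4. Of these, 66.2%, 90.5% and 80.7% were higher. The median of the members was then -0.02, -0.42 and -0.40, still below that of all genes on each day.

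**Figure D1:**
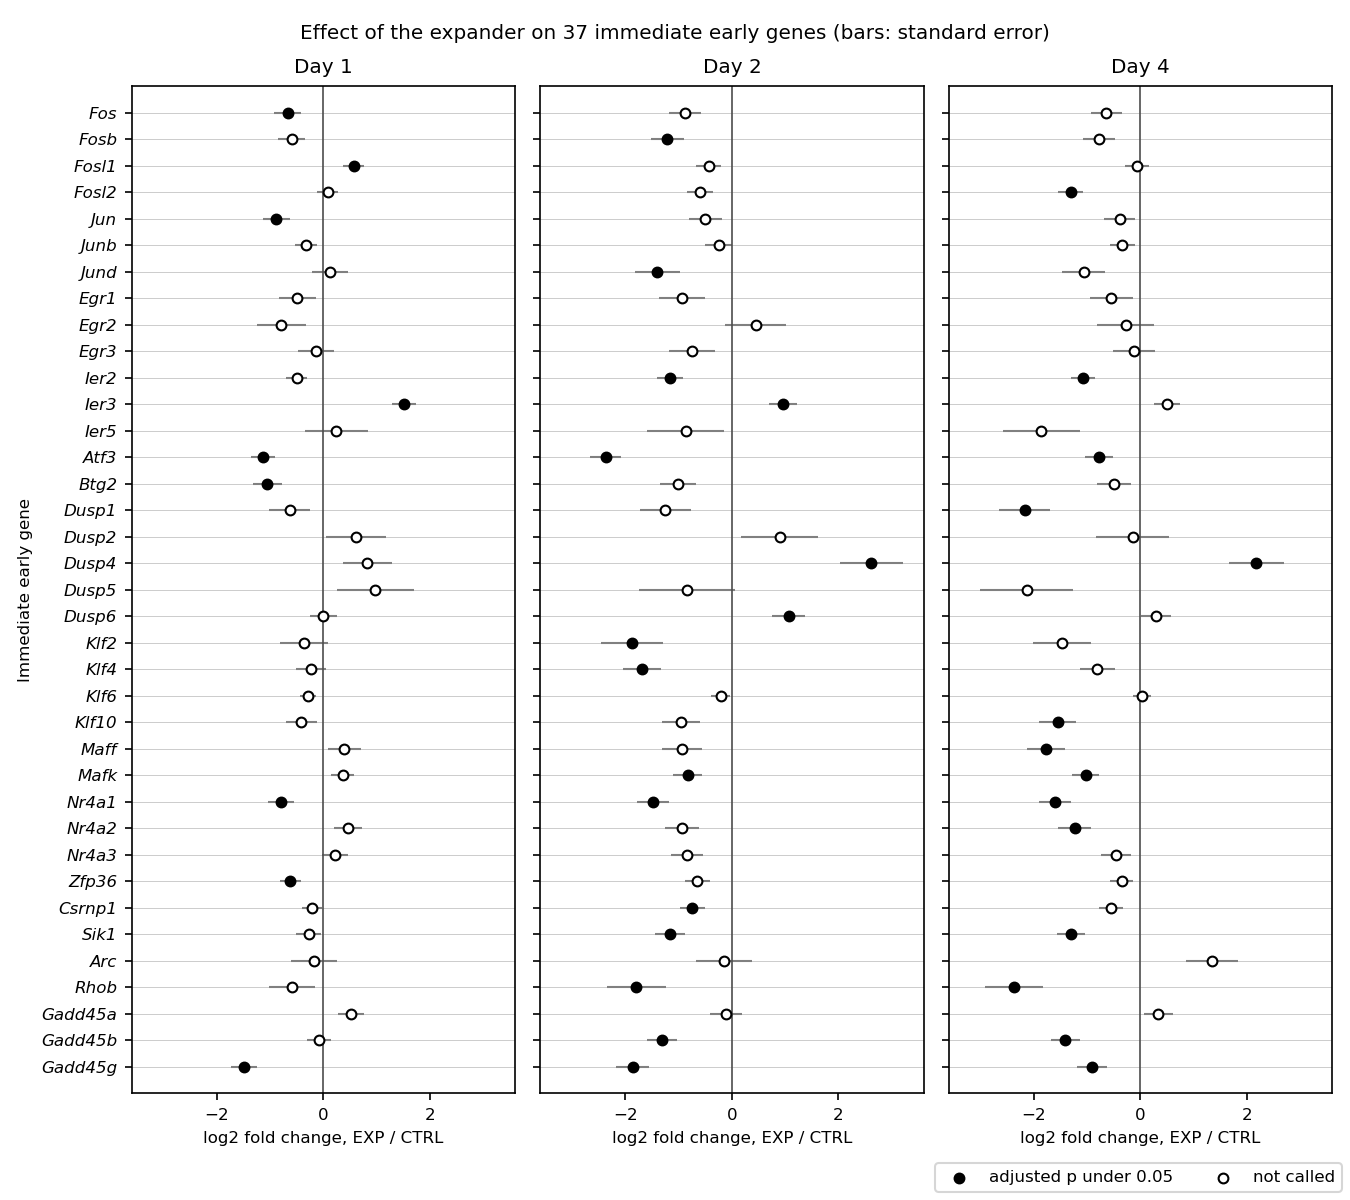
Log2 fold change of each of the 37 immediate early genes, EXP over CTRL, on days 1, 2 and 4 (x axis, with bars for the standard error). Filled points have an adjusted p under 0.05: 2 lie above and 7 below 0 on day 1, 3 above and 13 below on day 2, and 1 above and 13 below on day 4.

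Taking the 37 members as one level, the mean log2 CPM was 7.04 ± 0.17 in CTRL (SD, n = 4) and 6.82 ± 0.32 in EXP (n = 5) on day 1. On day 2 it was 7.16 ± 0.18 in CTRL and 6.46 ± 0.11 in EXP (n = 3 each). On day 4 it was 6.95 ± 0.27 in CTRL (n = 4) and 6.26 ± 0.12 in EXP (n = 3). The day 1 arms overlap, while all EXP libraries of days 2 and 4 lie below all CTRL libraries of the same day. As a share of a library's counts, the members made up 1.91 ± 0.278% in CTRL and 1.62 ± 0.408% in EXP on day 1, 1.78 ± 0.308% and 1.37 ± 0.0947% on day 2, and 1.46 ± 0.359% and 1.08 ± 0.171% on day 4. On this measure the arms overlap on days 1 and 4 and not on day 2.

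**Figure D2:**
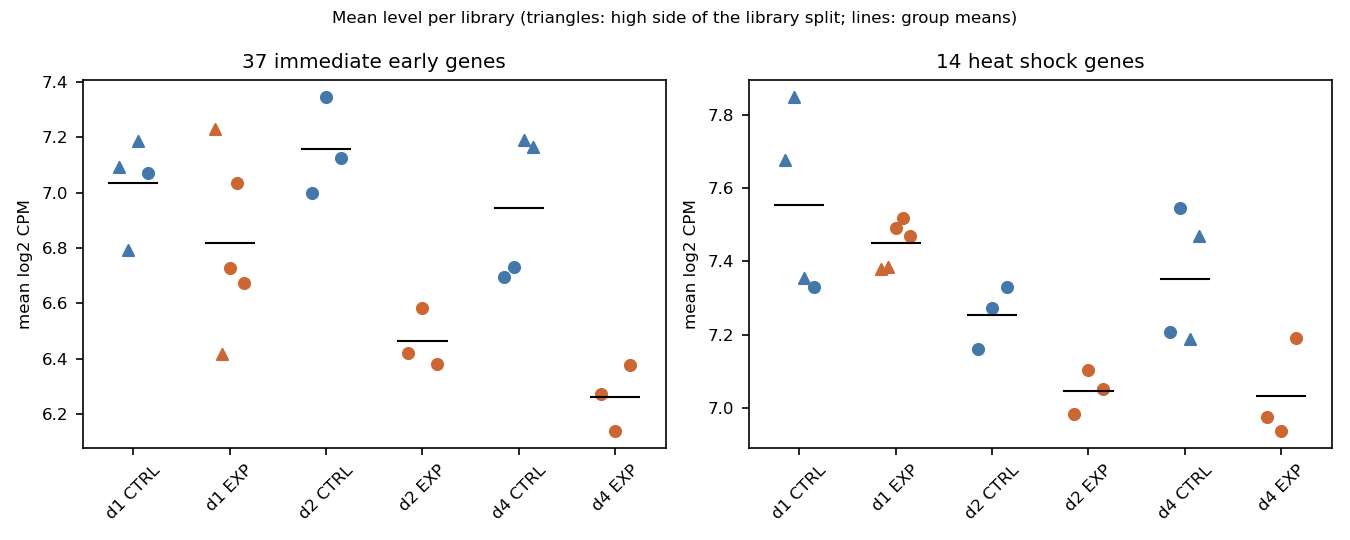
Mean log2 CPM over the 37 members (left) and over 14 heat shock genes (right) in each library (CTRL blue, EXP orange, triangles for the high side of the library split, black lines for group means). For the members the groups average 7.04 and 6.82 on day 1, 7.16 and 6.46 on day 2, and 6.95 and 6.26 on day 4 (CTRL, then EXP).

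Heat shock genes, which dissociation is also known to raise, were looked at beside the members. Of 14 such genes, 2 rose and 3 fell on day 1, 2 rose and 4 fell on day 2 and 2 rose and 6 fell on day 4, with median log2 fold changes of -0.24 for day 1, -0.18 for day 2 and -0.30 for day 4. Over all genes tested, 13.9% rose and 14.7% fell on day 1, and 7.72% rose and 5.71% fell on day 2. The day 4 shares were 12.8% and 9.66%. These counts were not tested against the shares of all genes. Dnajb1, a co-chaperone of HSP70, stood at 247 CPM in CTRL and 159.5 CPM in EXP on day 1 (log2 fold change -0.63, SE 0.12, adjusted p = 5.36e-04), and at 244 CPM in CTRL and 119.5 CPM in EXP on day 2 (log2 fold change -1.03, SE 0.15, adjusted p = 1.98e-04). Hspa1b, an inducible HSP70, stood at 635 CPM in CTRL and 267 CPM in EXP on day 4 (log2 fold change -1.25, SE 0.39, adjusted p = 0.0266). Hspd1, the mitochondrial chaperonin, went up instead, with 49.8 CPM in CTRL and 102 CPM in EXP on day 2 (log2 fold change 1.03, SE 0.18, adjusted p = 0.00119). The mean log2 CPM of the 14 genes was 7.55 ± 0.25 in CTRL (SD, n = 4) and 7.45 ± 0.06 in EXP (n = 5) on day 1. It was 7.26 ± 0.09 and 7.05 ± 0.06 on day 2 (n = 3 each), and 7.35 ± 0.18 (n = 4) and 7.03 ± 0.14 (n = 3) on day 4. All day 1 EXP libraries lay within the CTRL range, the arms overlapped on day 4, and they did not on day 2. The group mean of these genes was lower in EXP than in CTRL on each day, as was that of the members. The part of tissue digestion in the result was not tested.

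Summed levels of the markers of some other cells and of fibroblasts lay apart between the arms on some days. The summed level of 5 adipocyte markers was 0.200 to 0.885 CPM in day 2 CTRL and 7.30 to 78.6 CPM in day 2 EXP, and 0.290 to 1.41 CPM in day 4 CTRL and 55.9 to 261 CPM in day 4 EXP. All 5 were above the floor in EXP of both days, while 2 were in CTRL, where Plin1 and Lep were at 0. The 6 endothelial markers summed to 0.399 to 0.699 CPM in CTRL and 2.22 to 8.50 CPM in EXP on day 2 and to 3.53 to 8.30 CPM and 22 to 56.8 CPM on day 4, with Emcn at 0 in day 2 CTRL. Tek reached 45.8 CPM in its highest library, and no other endothelial marker exceeded 3.76 CPM. On day 1 the arms overlapped for the adipocyte sum (1.33 to 25.6 CPM in CTRL, 0.963 to 9.68 CPM in EXP). The endothelial sum also overlapped on day 1 (5.31 to 9.22 CPM in CTRL, 0.999 to 8.61 CPM in EXP). The 9 fibroblast markers, mostly collagen messages by level, summed to 218699 to 264440.5 CPM in CTRL and 117402 to 174234 CPM in EXP on day 1, to 293213 to 327513 CPM in CTRL and 86895 to 182973 CPM in EXP on day 2, and to 244448 to 307730.1 CPM and 110191 to 260074 CPM on day 4, where the arms overlap. The 6 melanocyte and mast cell markers summed to 4.88 to 11.4 CPM in CTRL and 19.3 to 39.5 CPM in EXP on day 2, with Kit and Dct at 0 in CTRL and Tyrp1 and Cpa3 at 0 in EXP. Mlana reached 38.9 CPM in its highest library, and no other marker of this list exceeded 1.67 CPM. The 4 Schwann cell markers summed to 0.862 to 1.47 CPM in CTRL and 2.26 to 3.86 CPM in EXP on day 4, with Sox10 at 0 in EXP. The 7 keratinocyte markers summed to at most 43 CPM, and the 9 haematopoietic markers to between 42.8 and 132 CPM in any library. In their highest libraries Csf1r reached 127 CPM, Cd3e 38.1 CPM and Cd68 31.5 CPM, and no other haematopoietic marker exceeded 5.45 CPM. Ptprc, which encodes CD45, reached at most 0.248 CPM. For the keratinocyte and haematopoietic lists the arms overlapped on each day, as they did for the pericyte and smooth muscle and the skeletal muscle markers. The part of these cells in the members' differences was not tested.

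The members called lower were not the same on each day. Atf3 (ENSMUSG00000026628 in the table), Nr4a1 (ENSMUSG00000023034) and Gadd45g (ENSMUSG00000021453) fell on all 3 days. Fos, Jun, Btg2 and Zfp36 fell on day 1 only, and Ier2, Mafk, Sik1, Rhob and Gadd45b fell on days 2 and 4 but not on day 1. Fosb, Jund, Klf2, Klf4 and Csrnp1 fell on day 2 only, and Fosl2, Dusp1, Klf10, Maff and Nr4a2 on day 4 only. In all, 22 members fell on at least 1 day, as did 22.5% of all genes, and 3 on all 3 days, as did 1.78%. The 4 that rose were Fosl1 (day 1), Ier3 (days 1 and 2), Dusp4 (days 2 and 4) and Dusp6 (day 2), and no member was called in both directions. The other 11 passed the edgeR test on all 22 libraries on no day: Junb, Egr1, Egr2, Egr3, Ier5, Dusp2, Dusp5, Klf6, Nr4a3, Arc and Gadd45a. Other tools called some of these, Nr4a3 on day 2 by limma voom and DESeq2, Klf6 on day 1 by limma voom, and Ier5, Dusp5 and Arc on day 4 by DESeq2. In edgeR fits of only the compared libraries, Gadd45a on day 1 and Egr1 and Nr4a3 on day 2 were called. Passing on one day and not on another is not a difference between days, which was tested separately and is given after the single genes.

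Since many of these genes fell together, the start of the promoter is shown for 6 of them: the 3 that fell on all 3 days (Atf3, Nr4a1 and Gadd45g), Ier3, which rose, and Fos and Dusp1, the most abundant members per length in day 1 CTRL. Each is the 250 bases just before the annotated start, 5′ to 3′ on the gene's strand, from RefSeq on GRCm38.p6. Capitals mark 3 kinds of match on either strand: the CRE hexamer TGACGT that CREB and ATF proteins are known to bind, the CArG box of SRF, and the EGR site GCGNGGGCG. The windows are Atf3 chr1:191183334-191183583 (minus strand), Nr4a1 chr15:101266596-101266845 (plus strand), Gadd45g chr13:51846425-51846674 (plus strand), Ier3 chr17:35821463-35821712 (plus strand), Fos chr12:85473640-85473889 (plus strand) and Dusp1 chr17:26508473-26508722 (minus strand).
Atf3: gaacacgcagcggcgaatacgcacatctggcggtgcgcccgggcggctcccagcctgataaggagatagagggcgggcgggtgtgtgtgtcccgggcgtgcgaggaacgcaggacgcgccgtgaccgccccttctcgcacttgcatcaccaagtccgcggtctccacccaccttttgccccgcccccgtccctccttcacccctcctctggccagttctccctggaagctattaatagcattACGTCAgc
Nr4a1: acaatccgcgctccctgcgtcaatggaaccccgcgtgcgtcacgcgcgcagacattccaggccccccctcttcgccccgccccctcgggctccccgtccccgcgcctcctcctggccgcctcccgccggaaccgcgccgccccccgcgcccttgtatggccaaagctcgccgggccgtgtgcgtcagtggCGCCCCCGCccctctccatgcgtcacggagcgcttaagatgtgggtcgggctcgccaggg
Gadd45g: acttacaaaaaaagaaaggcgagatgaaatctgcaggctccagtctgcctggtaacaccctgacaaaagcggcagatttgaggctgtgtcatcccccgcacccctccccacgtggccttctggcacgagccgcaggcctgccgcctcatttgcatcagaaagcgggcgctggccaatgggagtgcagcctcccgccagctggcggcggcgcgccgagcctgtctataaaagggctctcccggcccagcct
Ier3: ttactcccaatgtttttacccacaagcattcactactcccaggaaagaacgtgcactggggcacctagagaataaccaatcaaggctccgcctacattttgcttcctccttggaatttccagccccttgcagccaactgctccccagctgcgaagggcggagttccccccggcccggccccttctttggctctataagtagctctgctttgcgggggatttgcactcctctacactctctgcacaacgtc
Fos: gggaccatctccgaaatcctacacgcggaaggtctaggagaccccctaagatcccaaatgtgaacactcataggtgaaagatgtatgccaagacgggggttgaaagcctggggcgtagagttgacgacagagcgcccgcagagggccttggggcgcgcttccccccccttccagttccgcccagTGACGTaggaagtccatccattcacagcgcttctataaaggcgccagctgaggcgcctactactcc
Dusp1: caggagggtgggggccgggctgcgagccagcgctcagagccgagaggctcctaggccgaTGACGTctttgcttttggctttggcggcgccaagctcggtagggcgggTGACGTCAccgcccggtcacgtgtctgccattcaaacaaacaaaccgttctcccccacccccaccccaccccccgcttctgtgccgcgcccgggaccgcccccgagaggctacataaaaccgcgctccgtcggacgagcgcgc
The Atf3 window holds a CRE hexamer close to the start, Fos holds 1 and Dusp1 holds 3, of which a pair forms the full palindrome TGACGTCA. The Nr4a1 window holds an EGR site, and those of Gadd45g and Ier3 hold none of the 3 motifs.

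The table of promoters held 29 of the 37 members, with 38 start sites in all, beside 32851 windows of the same length for all genes. The CRE hexamer was found in 26.3% of the members' windows and 6.47% of all windows, and the full CRE TGACGTCA, which contains the hexamer on both strands, in 7.89% of the members' windows and 1.55% of all windows. A CArG box was found in 15.8% of the members' windows and 1.47% of all windows. By gene these were 3 of the 29, Dusp5, Egr2 and Zfp36, with several of the windows from Egr2. Egr1 is among the 8 members without a window, and sites further than 250 bases before a start were not searched. The EGR site GCGNGGGCG was found in 31.6% of the members' windows and 4.70% of all windows, the GC box GGGCGG, which can overlap an EGR site, in 71.1% of the members' windows and 32.7% of all windows, and TATAAA in 7.89% of the members' windows and 7.59% of all windows. The AP-1 site TGANTCA was found in 2.63% of the members' windows and 6.75% of all windows. Some members have several starts whose windows overlap, such as Egr2, so windows are not independent. These are matches of letters, and neither binding nor use of a site was measured.

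The FOS subunits of AP-1 (Fos, Fosb, Fosl1 and Fosl2) pair with a JUN protein to bind DNA. Of the 4, 1 fell and 1 rose on day 1, and 1 fell on each of days 2 and 4. On day 1 Fos stood at 2381, 1661, 2199 and 3031 CPM in CTRL and at 1729, 1019, 1347, 2092 and 1078 CPM in EXP. The day 2 Fos levels were 2214, 3114 and 2666 CPM in CTRL and 1433, 1381 and 1524 CPM in EXP. By day 4 Fos stood at 1454, 1381, 2751 and 1175 CPM in CTRL and 1091, 837 and 1332 CPM in EXP. For Fos, every EXP library lay below every CTRL library on day 2, and the arms overlapped on days 1 and 4. Among the day 1 EXP libraries only EXP 1 and EXP 4 reached the CTRL range. The Fos estimate was -0.67 ± 0.25 for day 1 (log2 fold change ± SE, adjusted p = 0.0481), -0.88 ± 0.31 for day 2 (adjusted p = 0.0616) and -0.64 ± 0.29 for day 4 (adjusted p = 0.117), so that it fell on day 1. The Fos call was lost on day 1 with unscaled library totals, with totals that leave out the 10 genes with most counts, without the filter on low counts, in a fit of only the compared libraries, with the split as a covariate and without any one library other than CTRL 2 and EXP 4, with adjusted p from 0.0210 to 0.207 over its alternatives.

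Fosb encodes a close relative of FOS. On day 1 Fosb stood at 802, 597, 1109.9 and 1115 CPM in CTRL and at 642, 354, 478, 894 and 621 CPM in EXP. The day 2 Fosb levels were 916, 1308 and 1148 CPM in CTRL and 471, 542 and 442 CPM in EXP. By day 4 Fosb stood at 696, 449.9, 842 and 865 CPM in CTRL and 549.6, 302 and 396 CPM in EXP. For Fosb, every EXP library lay below every CTRL library on day 2, and the arms overlapped on days 1 and 4. On day 4 the EXP library with the most, EXP 1, exceeded CTRL 2 alone. The Fosb estimate was -0.60 ± 0.25 for day 1 (log2 fold change ± SE, adjusted p = 0.0805), -1.21 ± 0.31 for day 2 (adjusted p = 0.0140) and -0.78 ± 0.29 for day 4 (adjusted p = 0.0607), so that it fell on day 2. The Fosb call was lost on day 2 with unscaled library totals and without CTRL 2, EXP 1 or EXP 3, with adjusted p from 0.00153 to 0.121 over its alternatives. Fosb on day 2 gave a log2 fold change of -0.76 with unscaled library totals.

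Fosl1 and Fosl2 encode FOS-related subunits that are induced later than FOS and last longer. On day 1 Fosl1 stood at 82.9, 58.3, 88.5 and 44.5 CPM in CTRL and at 124, 113, 92.4, 76 and 104 CPM in EXP. The day 2 Fosl1 levels were 79.5, 96.1 and 101 CPM in CTRL and 68.1, 70.9 and 65.5 CPM in EXP. By day 4 Fosl1 stood at 51.4, 67, 62.3 and 86.8 CPM in CTRL and 51.5, 73 and 67 CPM in EXP. For Fosl1, every EXP library lay below every CTRL library on day 2, and the arms overlapped on days 1 and 4. CTRL 4 was the lowest library of day 1 for this gene. The Fosl1 estimate was 0.57 ± 0.20 for day 1 (log2 fold change ± SE, adjusted p = 0.0330), -0.44 ± 0.24 for day 2 (adjusted p = 0.235) and -0.07 ± 0.22 for day 4 (adjusted p = 0.856), so that it rose on day 1. The Fosl1 call was lost on day 1 in a fit of only the compared libraries, by limma voom and without any one library other than CTRL 1, CTRL 3, EXP 3 and EXP 4, with adjusted p from 0.00276 to 0.121 over its alternatives. On day 1 Fosl2 stood at 53.1, 44.3, 48.1 and 50.9 CPM in CTRL and at 53, 33.4, 63.9, 58.6 and 50.6 CPM in EXP. The day 2 Fosl2 levels were 63.9, 101 and 58.9 CPM in CTRL and 38.6, 66.3 and 43.3 CPM in EXP. By day 4 Fosl2 stood at 89.1, 95.1, 64.3 and 72.1 CPM in CTRL and 38.1, 27.3 and 31.6 CPM in EXP. For Fosl2, every EXP library lay below every CTRL library on day 4, and the arms overlapped on days 1 and 2. The day 4 difference is the clearest, with all 3 EXP libraries well under the lowest CTRL library. The Fosl2 estimate was 0.08 ± 0.20 for day 1 (log2 fold change ± SE, adjusted p = 0.803), -0.60 ± 0.25 for day 2 (adjusted p = 0.114) and -1.31 ± 0.24 for day 4 (adjusted p = 0.00125), so that it fell on day 4.

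Of the JUN subunits, Jun fell on day 1, Jund on day 2 and Junb on no day. On day 1 Jun stood at 1429, 867, 1242 and 1259 CPM in CTRL and at 847, 543, 596, 713 and 540.4 CPM in EXP. The day 2 Jun levels were 895, 1232 and 1038 CPM in CTRL and 719, 646 and 872 CPM in EXP. By day 4 Jun stood at 544, 458, 1344 and 773 CPM in CTRL and 675, 412 and 700.1 CPM in EXP. For Jun, every EXP library lay below every CTRL library on days 1 and 2, and the arms overlapped on day 4. On day 4, CTRL 3 stood far above the other CTRL libraries. The Jun estimate was -0.89 ± 0.25 for day 1 (log2 fold change ± SE, adjusted p = 0.0122), -0.50 ± 0.31 for day 2 (adjusted p = 0.311) and -0.39 ± 0.29 for day 4 (adjusted p = 0.354), so that it fell on day 1. The Jun call was lost on day 1 with unscaled library totals, with adjusted p from 0.00424 to 0.0571 over its alternatives. On day 1 Junb stood at 1947, 1719, 2118 and 1967 CPM in CTRL and at 2047, 1076, 1127, 1951 and 1533 CPM in EXP. The day 2 Junb levels were 1435, 2079.5 and 1717 CPM in CTRL and 1886, 1236 and 1289 CPM in EXP. By day 4 Junb stood at 1242, 1309.7, 1666 and 1121 CPM in CTRL and 963, 1319 and 875 CPM in EXP. For Junb, the arms overlapped on days 1, 2 and 4. The Junb estimate was -0.33 ± 0.21 for day 1 (log2 fold change ± SE, adjusted p = 0.251), -0.25 ± 0.25 for day 2 (adjusted p = 0.567) and -0.34 ± 0.24 for day 4 (adjusted p = 0.310), and none passed the test. Jund fell from a range of 14.7 to 37.1 CPM in CTRL to one of 8.18 to 10.3 CPM in EXP on day 2 (-1.40 on the log2 scale, SE 0.43, adjusted p = 0.0328). The Jund call was lost on day 2 with unscaled library totals, without the filter on low counts and without CTRL 2, EXP 1 or EXP 3, with adjusted p from 0.00848 to 0.197 over its alternatives. Jund on day 2 gave a log2 fold change of -0.92 without CTRL 2. In the GENCODE M21 annotation the exons of Jun, Junb and Jund each overlap a gene on the other strand (Junos, Prdx2 and Gm11175), and whether the counting used strand is not given in the sources used here, so reads of the partners may be mixed.

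The EGR zinc finger factors are classic readouts of ERK and SRF. None of the 3 passed the edgeR test on all libraries on any day, and their libraries spread widely. On day 1 Egr1 stood at 2054, 1613, 2386 and 2074 CPM in CTRL and at 2569.8, 988, 1266, 1564 and 840.1 CPM in EXP. The day 2 Egr1 levels were 1113, 1791 and 1075 CPM in CTRL and 613, 625 and 842 CPM in EXP. By day 4 Egr1 stood at 482, 529, 1998 and 948 CPM in CTRL and 812, 660.0 and 560.1 CPM in EXP. For Egr1, every EXP library lay below every CTRL library on day 2, and the arms overlapped on days 1 and 4. The highest day 1 value belonged to EXP 1, and the day 4 CTRL libraries differed among themselves by several-fold. The Egr1 estimate was -0.49 ± 0.35 for day 1 (log2 fold change ± SE, adjusted p = 0.317), -0.94 ± 0.44 for day 2 (adjusted p = 0.163) and -0.55 ± 0.41 for day 4 (adjusted p = 0.350), and none passed the test. Egr2 ranged from 33.6 to 64.8 CPM in CTRL and from 10.9 to 43 CPM in EXP on day 1 (-0.79 on the log2 scale, SE 0.47, adjusted p = 0.220). Egr3 ranged from 4.13 to 6.11 CPM in CTRL and from 2.12 to 4.17 CPM in EXP on day 2 (-0.75 on the log2 scale, SE 0.43, adjusted p = 0.261).

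**Figure D3:**
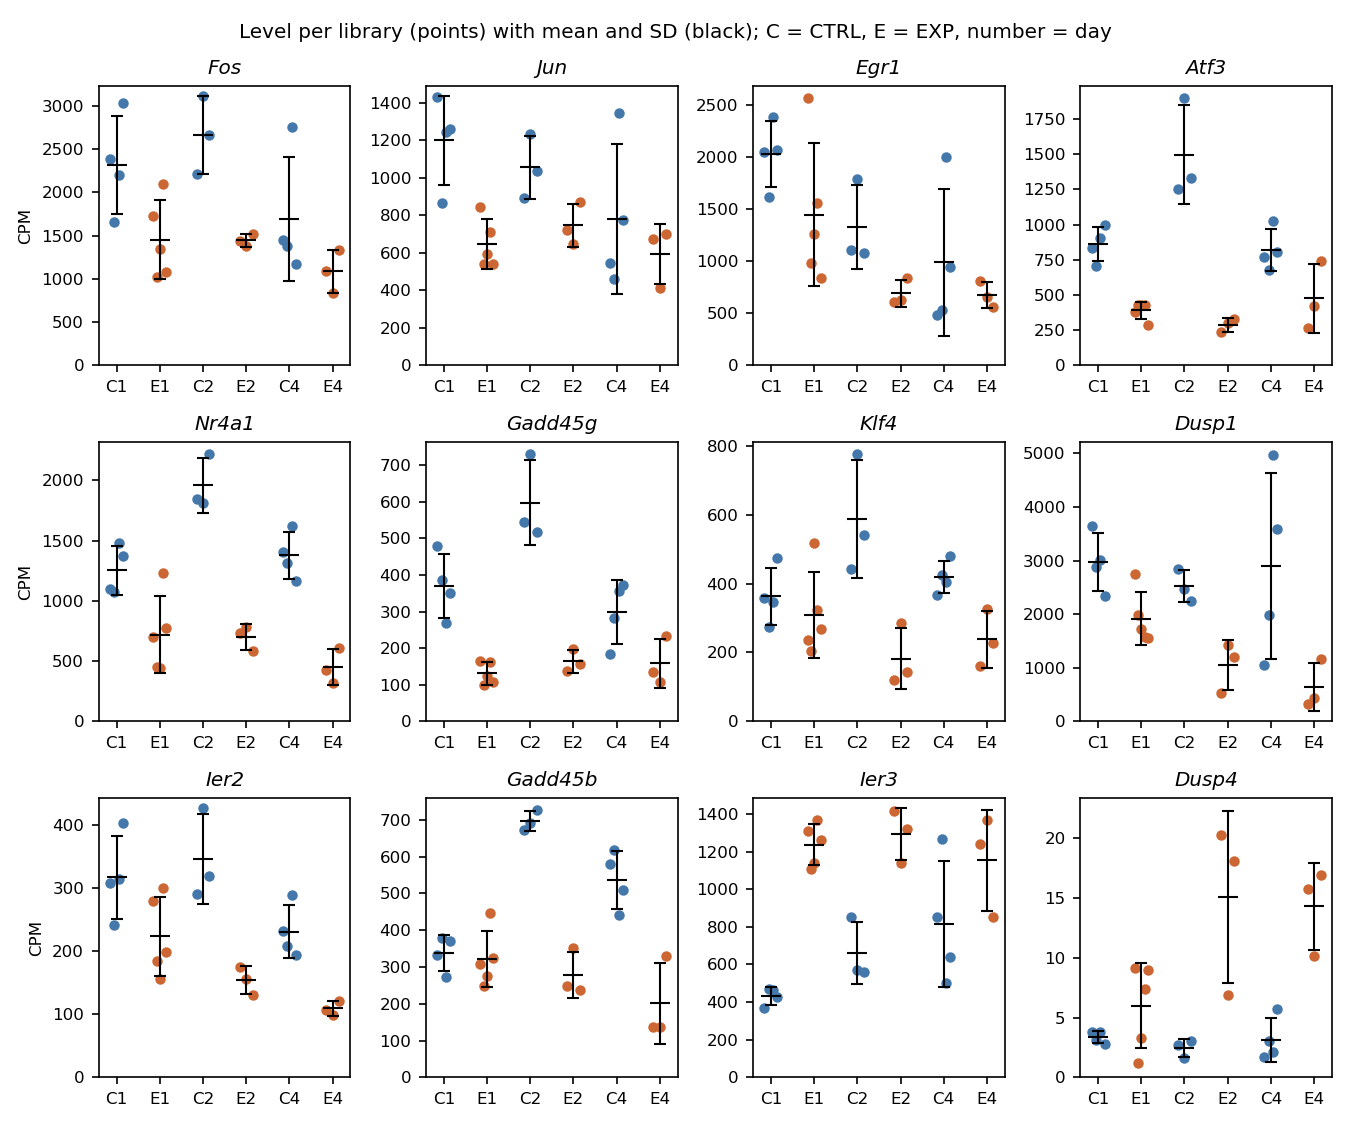
Level (CPM, linear axis from 0) of 12 members in every library (points: CTRL blue, EXP orange), with the group mean and SD in black, for days 1, 2 and 4. Atf3, Nr4a1 and Gadd45g have a lower mean in EXP on each day, and Ier3 and Dusp4 a higher mean. The rise was called for Ier3 on days 1 and 2 and for Dusp4 on days 2 and 4.

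Atf3 encodes a stress-induced bZIP factor of the ATF family that can pair with JUN. It had the largest fall of any member on day 2. On day 1 Atf3 stood at 835, 706, 904 and 997 CPM in CTRL and at 378, 431, 430.1, 428 and 287 CPM in EXP. The day 2 Atf3 levels were 1255, 1900.0 and 1331 CPM in CTRL and 234, 305 and 330.4 CPM in EXP. By day 4 Atf3 stood at 768, 679, 1027 and 806 CPM in CTRL and 264, 423 and 741 CPM in EXP. For Atf3, every EXP library lay below every CTRL library on days 1 and 2, and the arms overlapped on day 4. On day 4 only EXP 3 reached the CTRL range. The Atf3 estimate was -1.14 ± 0.23 for day 1 (log2 fold change ± SE, adjusted p = 9.20e-04), -2.37 ± 0.29 for day 2 (adjusted p = 6.03e-05) and -0.78 ± 0.26 for day 4 (adjusted p = 0.0380), so that it fell on days 1, 2 and 4. The Atf3 call was lost on day 4 with unscaled library totals, in a fit of only the compared libraries, with the split as a covariate and without CTRL 3, CTRL 4, EXP 1 or EXP 2, with adjusted p from 0.00200 to 0.214 over its alternatives. Atf3 on day 4 gave a log2 fold change of -0.49 without EXP 1 and -1.24 without EXP 3. Group means were 1495 ± 353 CPM in day 2 CTRL and 289.8 ± 49.7 CPM in day 2 EXP (SD, n = 3 each).

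Maff and Mafk encode small MAF proteins, which lack an activation domain and bind DNA as partners of other bZIP factors. Both fell on day 4, and Mafk also on day 2. On day 1 Maff stood at 9.43, 12.9, 16.5 and 8.96 CPM in CTRL and at 20.1, 13.8, 21.7, 10.9 and 11.9 CPM in EXP. The day 2 Maff levels were 10.3, 16.4 and 10.5 CPM in CTRL and 6.17, 7.08 and 6.10 CPM in EXP. By day 4 Maff stood at 10.4, 12.5, 19.4 and 33.4 CPM in CTRL and 4.37, 7.36 and 4.89 CPM in EXP. For Maff, every EXP library lay below every CTRL library on days 2 and 4, and the arms overlapped on day 1. CTRL 4 of day 4 was the highest library for this gene. The Maff estimate was 0.39 ± 0.30 for day 1 (log2 fold change ± SE, adjusted p = 0.353), -0.94 ± 0.37 for day 2 (adjusted p = 0.100) and -1.77 ± 0.36 for day 4 (adjusted p = 0.00273), so that it fell on day 4. Maff on day 4 gave a log2 fold change of -1.05 among the low-side libraries alone. Mafk fell from a range of 348 to 454 CPM in CTRL to one of 185 to 267 CPM in EXP on day 2 (-0.83 on the log2 scale, SE 0.27, adjusted p = 0.0454) and from a range of 301 to 485 CPM in CTRL to one of 95.9 to 257 CPM in EXP on day 4 (-1.03 on the log2 scale, SE 0.26, adjusted p = 0.00883). The Mafk call was lost on day 2 with unscaled library totals and without any one library other than EXP 2, with adjusted p from 0.00291 to 0.236 over its alternatives. Its call was also lost on day 4 in a fit of only the compared libraries and without EXP 1, with adjusted p from 0.00122 to 0.0881 over its alternatives. Mafk on day 2 gave a log2 fold change of -0.38 with unscaled library totals. Mafk exons overlap those of Tmem184a on the other strand.

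The NR4A orphan nuclear receptors are rapidly induced by many signals, and Nr4a1 fell on all 3 days. On day 1 Nr4a1 stood at 1097, 1070.0, 1476 and 1376 CPM in CTRL and at 701, 454, 440.1, 1228 and 777 CPM in EXP. The day 2 Nr4a1 levels were 1841, 1813 and 2222 CPM in CTRL and 734, 787 and 582 CPM in EXP. By day 4 Nr4a1 stood at 1408, 1317, 1620.3 and 1161 CPM in CTRL and 424, 320.2 and 612 CPM in EXP. For Nr4a1, every EXP library lay below every CTRL library on days 2 and 4, and the arms overlapped on day 1. On day 1 the EXP 4 library lay within the CTRL range. The Nr4a1 estimate was -0.80 ± 0.25 for day 1 (log2 fold change ± SE, adjusted p = 0.0185), -1.48 ± 0.31 for day 2 (adjusted p = 0.00373) and -1.61 ± 0.30 for day 4 (adjusted p = 0.00136), so that it fell on days 1, 2 and 4. The Nr4a1 call was lost on day 1 with unscaled library totals, in a fit of only the compared libraries and without CTRL 3 or EXP 3, with adjusted p from 0.00112 to 0.0979 over its alternatives. On day 1 Nr4a2 stood at 217, 293, 274 and 313 CPM in CTRL and at 369.8, 206, 295, 605 and 403 CPM in EXP. The day 2 Nr4a2 levels were 535, 414 and 637 CPM in CTRL and 283, 299.7 and 248 CPM in EXP. By day 4 Nr4a2 stood at 401, 450.1, 449 and 367 CPM in CTRL and 131, 115 and 285 CPM in EXP. For Nr4a2, every EXP library lay below every CTRL library on days 2 and 4, and the arms overlapped on day 1. On day 1 the EXP values lay on both sides of the CTRL range, the highest being EXP 4. The Nr4a2 estimate was 0.45 ± 0.26 for day 1 (log2 fold change ± SE, adjusted p = 0.207), -0.93 ± 0.32 for day 2 (adjusted p = 0.0580) and -1.24 ± 0.31 for day 4 (adjusted p = 0.00851), so that it fell on day 4. The Nr4a2 call was lost on day 4 in a fit of only the compared libraries and without EXP 1 or EXP 2, with adjusted p from 4.38e-04 to 0.0580 over its alternatives. Nr4a3 ranged from 82.7 to 112 CPM in CTRL and from 40.8 to 70.9 CPM in EXP on day 2 (-0.85 on the log2 scale, SE 0.30, adjusted p = 0.0632).

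Of the Krüppel-like factors, zinc finger regulators of growth and differentiation, none passed on day 1, Klf2 and Klf4 fell on day 2, and Klf10 fell on day 4. On day 1 Klf4 stood at 357, 274, 347 and 474 CPM in CTRL and at 235, 204, 518, 323 and 267 CPM in EXP. The day 2 Klf4 levels were 442, 777 and 541 CPM in CTRL and 119.7, 284 and 144 CPM in EXP. By day 4 Klf4 stood at 366, 425, 405 and 479.7 CPM in CTRL and 161, 326 and 228 CPM in EXP. For Klf4, every EXP library lay below every CTRL library on days 2 and 4, and the arms overlapped on day 1. EXP 3 of day 1 was the highest library of its day, above every CTRL library. The Klf4 estimate was -0.23 ± 0.28 for day 1 (log2 fold change ± SE, adjusted p = 0.575), -1.69 ± 0.35 for day 2 (adjusted p = 0.00398) and -0.81 ± 0.33 for day 4 (adjusted p = 0.0773), so that it fell on day 2. Klf2 fell from a range of 10.9 to 33.2 CPM in CTRL to one of 3.73 to 8.14 CPM in EXP on day 2 (-1.88 on the log2 scale, SE 0.58, adjusted p = 0.0349). The Klf2 call was lost on day 2 with unscaled library totals, without the filter on low counts and without CTRL 2, EXP 1 or EXP 3, with adjusted p from 0.00390 to 0.203 over its alternatives. Klf10 fell from a range of 120.3 to 194 CPM in CTRL to one of 27.5 to 89.7 CPM in EXP on day 4 (-1.55 on the log2 scale, SE 0.35, adjusted p = 0.00481). The Klf10 call was lost on day 4 in a fit of only the compared libraries, with adjusted p from 3.18e-05 to 0.0644 over its alternatives. Klf6 ranged from 625 to 891 CPM in CTRL and from 503 to 789.6 CPM in EXP on day 1 (-0.29 on the log2 scale, SE 0.15, adjusted p = 0.149).

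The DUSP phosphatases, which inactivate MAP kinases, did not move together. Dusp1, an abundant nuclear phosphatase of p38, JNK and ERK, fell on day 4. Dusp4, a nuclear phosphatase, and Dusp6, a cytoplasmic phosphatase of ERK, rose instead, Dusp4 on days 2 and 4 and Dusp6 on day 2. On day 1 Dusp1 stood at 3649, 2875, 3016 and 2339 CPM in CTRL and at 2751, 1983, 1719, 1568 and 1559.8 CPM in EXP. The day 2 Dusp1 levels were 2852, 2467 and 2253 CPM in CTRL and 533, 1435 and 1204 CPM in EXP. By day 4 Dusp1 stood at 1046, 1991, 4975 and 3589 CPM in CTRL and 329.6, 434 and 1160.0 CPM in EXP. For Dusp1, every EXP library lay below every CTRL library on day 2, and the arms overlapped on days 1 and 4. On day 4 the CTRL libraries ran over a wide range, with CTRL 3 and 4 highest, and EXP 3 exceeded CTRL 1. The Dusp1 estimate was -0.63 ± 0.39 for day 1 (log2 fold change ± SE, adjusted p = 0.235), -1.26 ± 0.48 for day 2 (adjusted p = 0.0892) and -2.18 ± 0.48 for day 4 (adjusted p = 0.00420), so that it fell on day 4. The Dusp1 call was lost on day 4 in a fit of only the compared libraries, with adjusted p from 2.37e-05 to 0.0708 over its alternatives. Dusp1 on day 4 gave a log2 fold change of -1.24 among the low-side libraries alone.

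Dusp4 was present at a low level in CTRL on every day. On day 1 Dusp4 stood at 3.79, 3.13, 3.83 and 2.83 CPM in CTRL and at 9.15, 1.17, 3.34, 7.42 and 8.97 CPM in EXP. The day 2 Dusp4 levels were 2.74, 1.62 and 3.01 CPM in CTRL and 20.3, 6.88 and 18.1 CPM in EXP. By day 4 Dusp4 stood at 1.69, 3.09, 2.09 and 5.75 CPM in CTRL and 15.8, 10.2 and 17 CPM in EXP. For Dusp4, every EXP library lay above every CTRL library on days 2 and 4, and the arms overlapped on day 1. On day 1 EXP 2 was the lowest library and EXP 1 the highest. The Dusp4 estimate was 0.82 ± 0.46 for day 1 (log2 fold change ± SE, adjusted p = 0.194), 2.62 ± 0.59 for day 2 (adjusted p = 0.00629) and 2.18 ± 0.52 for day 4 (adjusted p = 0.00697), so that it rose on days 2 and 4. On day 1 Dusp6 stood at 22, 12.3, 24.6 and 26.6 CPM in CTRL and at 28.6, 16.2, 20.2, 22 and 19.6 CPM in EXP. The day 2 Dusp6 levels were 14.7, 11.5 and 13.3 CPM in CTRL and 28.6, 23.4 and 31 CPM in EXP. By day 4 Dusp6 stood at 14.8, 9.82, 22 and 12.8 CPM in CTRL and 25.5, 12.1 and 16.9 CPM in EXP. For Dusp6, every EXP library lay above every CTRL library on day 2, and the arms overlapped on days 1 and 4. The Dusp6 estimate was -0.0032 ± 0.25 for day 1 (log2 fold change ± SE, adjusted p = 0.995), 1.07 ± 0.31 for day 2 (adjusted p = 0.0250) and 0.29 ± 0.28 for day 4 (adjusted p = 0.491), so that it rose on day 2. The Dusp6 call was lost on day 2 without any one library other than EXP 2, with adjusted p from 0.00265 to 0.106 over its alternatives. Dusp2 ranged from 0.847 to 1.72 CPM in CTRL and from 1.09 to 2.73 CPM in EXP on day 1 (0.62 on the log2 scale, SE 0.56, adjusted p = 0.440). Dusp5 ranged from 1.55 to 22.6 CPM in CTRL and from 1.37 to 2.28 CPM in EXP on day 4 (-2.14 on the log2 scale, SE 0.88, adjusted p = 0.0849). Dusp2 was the least abundant member per length in day 1 CTRL. In day 4 EXP it stood at 0.202 ± 0.243 CPM per kb of exon (SD, n = 3). Dusp5 exons overlap a gene on the other strand.

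GADD45 proteins are small stress sensors that activate the p38 and JNK pathway. Gadd45g fell on all 3 days, Gadd45b on days 2 and 4, and Gadd45a on none. On day 1 Gadd45g stood at 478, 386, 268 and 350.3 CPM in CTRL and at 164, 99.2, 125, 163 and 106 CPM in EXP. The day 2 Gadd45g levels were 545, 731 and 516 CPM in CTRL and 137, 198 and 157 CPM in EXP. By day 4 Gadd45g stood at 183, 282, 358 and 373 CPM in CTRL and 136, 107 and 234 CPM in EXP. For Gadd45g, every EXP library lay below every CTRL library on days 1 and 2, and the arms overlapped on day 4. On day 4 only EXP 3 reached the CTRL range. The Gadd45g estimate was -1.50 ± 0.24 for day 1 (log2 fold change ± SE, adjusted p = 1.72e-04), -1.87 ± 0.31 for day 2 (adjusted p = 7.16e-04) and -0.91 ± 0.28 for day 4 (adjusted p = 0.0266), so that it fell on days 1, 2 and 4. The Gadd45g call was lost on day 4 with unscaled library totals, in a fit of only the compared libraries, with the split as a covariate and without CTRL 3, CTRL 4, EXP 1 or EXP 2, with adjusted p from 0.00374 to 0.135 over its alternatives. Gadd45g on day 4 gave a log2 fold change of -0.55 among the low-side libraries alone. On day 1 Gadd45b stood at 332, 378, 273 and 371 CPM in CTRL and at 309, 247, 276, 446 and 325 CPM in EXP. The day 2 Gadd45b levels were 672, 691 and 727 CPM in CTRL and 248, 350.2 and 237 CPM in EXP. By day 4 Gadd45b stood at 579.6, 617, 439.9 and 509 CPM in CTRL and 138, 137 and 329 CPM in EXP. For Gadd45b, every EXP library lay below every CTRL library on days 2 and 4, and the arms overlapped on day 1. On day 4 EXP 3 was above the other EXP libraries and still under the lowest CTRL library. The Gadd45b estimate was -0.08 ± 0.23 for day 1 (log2 fold change ± SE, adjusted p = 0.831), -1.32 ± 0.28 for day 2 (adjusted p = 0.00438) and -1.41 ± 0.27 for day 4 (adjusted p = 0.00172), so that it fell on days 2 and 4. Gadd45b on day 2 gave a log2 fold change of -0.87 with unscaled library totals. Gadd45a ranged from 10.7 to 15.2 CPM in CTRL and from 15.6 to 24.2 CPM in EXP on day 1 (0.51 on the log2 scale, SE 0.25, adjusted p = 0.126).

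The 3 IER genes went different ways. Ier3, whose product modulates survival and ERK signalling, rose on days 1 and 2. Ier2, a nuclear immediate early protein, fell on days 2 and 4. On day 1 Ier3 stood at 369.7, 470.1, 465 and 426 CPM in CTRL and at 1308, 1107, 1140.4, 1368 and 1261 CPM in EXP. The day 2 Ier3 levels were 851, 572 and 560.3 CPM in CTRL and 1415, 1141 and 1321 CPM in EXP. By day 4 Ier3 stood at 851, 1269, 503 and 640.0 CPM in CTRL and 1242, 1368 and 853 CPM in EXP. For Ier3, every EXP library lay above every CTRL library on days 1 and 2, and the arms overlapped on day 4. On day 4 CTRL 2 lay above EXP 1 and EXP 3. The Ier3 estimate was 1.52 ± 0.22 for day 1 (log2 fold change ± SE, adjusted p = 6.27e-05), 0.97 ± 0.26 for day 2 (adjusted p = 0.0180) and 0.50 ± 0.24 for day 4 (adjusted p = 0.139), so that it rose on days 1 and 2. The Ier3 call was lost on day 2 without CTRL 2, CTRL 3, EXP 1 or EXP 3, with adjusted p from 0.00150 to 0.0885 over its alternatives. Ier3 on day 2 gave a log2 fold change of 1.46 with unscaled library totals. Group means were 433 ± 46.3 CPM in day 1 CTRL (n = 4) and 1237 ± 111 CPM in day 1 EXP (n = 5, SD). On day 1 Ier2 stood at 309, 242, 316 and 404 CPM in CTRL and at 279.6, 185, 157, 301 and 198 CPM in EXP. The day 2 Ier2 levels were 292, 427 and 319.6 CPM in CTRL and 175, 156 and 132 CPM in EXP. By day 4 Ier2 stood at 233, 209, 289 and 194 CPM in CTRL and 108, 99 and 122 CPM in EXP. For Ier2, every EXP library lay below every CTRL library on days 2 and 4, and the arms overlapped on day 1. The Ier2 estimate was -0.50 ± 0.19 for day 1 (log2 fold change ± SE, adjusted p = 0.0578), -1.16 ± 0.24 for day 2 (adjusted p = 0.00370) and -1.08 ± 0.23 for day 4 (adjusted p = 0.00333), so that it fell on days 2 and 4. The Ier2 call was lost on day 2 with unscaled library totals, with adjusted p from 1.01e-04 to 0.0598 over its alternatives. Ier2 on day 2 gave a log2 fold change of -0.70 with unscaled library totals. Ier5 ranged from 59.9 to 317 CPM in CTRL and from 29.7 to 54.7 CPM in EXP on day 4 (-1.86 on the log2 scale, SE 0.72, adjusted p = 0.0674).

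Zfp36 and Btg2, whose products act in messenger RNA decay and in restraint of proliferation, both fell on day 1 and on no other day. On day 1 Btg2 stood at 594, 521, 577 and 677 CPM in CTRL and at 393, 206, 231, 359 and 236 CPM in EXP. The day 2 Btg2 levels were 283, 537 and 318 CPM in CTRL and 215, 173 and 178 CPM in EXP. By day 4 Btg2 stood at 322, 185, 589 and 218 CPM in CTRL and 221, 245 and 233 CPM in EXP. For Btg2, every EXP library lay below every CTRL library on days 1 and 2, and the arms overlapped on day 4. On day 4 CTRL 3 was far above the other CTRL libraries. The Btg2 estimate was -1.05 ± 0.27 for day 1 (log2 fold change ± SE, adjusted p = 0.00639), -1.01 ± 0.34 for day 2 (adjusted p = 0.0511) and -0.50 ± 0.31 for day 4 (adjusted p = 0.266), so that it fell on day 1. Zfp36 fell from a range of 808 to 1354 CPM in CTRL to one of 575 to 1018 CPM in EXP on day 1 (-0.62 on the log2 scale, SE 0.19, adjusted p = 0.0202). The Zfp36 call was lost on day 1 with unscaled library totals and without CTRL 3, CTRL 4, EXP 3 or EXP 5, with adjusted p from 0.00674 to 0.190 over its alternatives.

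Of the remaining rapid genes, Csrnp1, a nuclear protein, fell on day 2, Sik1, a salt-inducible kinase that restrains CREB coactivators, fell on days 2 and 4, and so did Rhob, a small GTPase of actin and vesicle traffic. Sik1 fell from a range of 92.6 to 137 CPM in CTRL to one of 44.6 to 58.7 CPM in EXP on day 2 (-1.17 on the log2 scale, SE 0.28, adjusted p = 0.00888) and from a range of 53.6 to 100.4 CPM in CTRL to one of 22.9 to 36.5 CPM in EXP on day 4 (-1.30 on the log2 scale, SE 0.27, adjusted p = 0.00283). The Sik1 call was lost on day 2 with unscaled library totals and without CTRL 2 or EXP 1, with adjusted p from 8.68e-04 to 0.0697 over its alternatives. Sik1 on day 2 gave a log2 fold change of -0.72 with unscaled library totals. Rhob fell from a range of 33.9 to 60.7 CPM in CTRL to one of 7.52 to 17.2 CPM in EXP on day 2 (-1.80 on the log2 scale, SE 0.55, adjusted p = 0.0358) and from a range of 16.7 to 97 CPM in CTRL to one of 8.07 to 12.5 CPM in EXP on day 4 (-2.38 on the log2 scale, SE 0.54, adjusted p = 0.00568). The Rhob call was lost on day 2 with unscaled library totals, without the filter on low counts and without CTRL 1, CTRL 2, EXP 1 or EXP 3, with adjusted p from 0.00547 to 0.173 over its alternatives. Its call was also lost on day 4 in a fit of only the compared libraries and by limma voom, with adjusted p from 3.40e-05 to 0.0960 over its alternatives. Rhob on day 4 gave a log2 fold change of -1.51 with the split as a covariate and -0.82 among the low-side libraries alone. Csrnp1 fell from a range of 454 to 563 CPM in CTRL to one of 282 to 326 CPM in EXP on day 2 (-0.75 on the log2 scale, SE 0.24, adjusted p = 0.0382). The Csrnp1 call was lost on day 2 with unscaled library totals and without any one of the libraries, with adjusted p from 0.00296 to 0.447 over its alternatives. Csrnp1 on day 2 gave a log2 fold change of -0.28 with unscaled library totals. Arc, best known as a synaptic gene of neurons, was measured here at 20.1 to 39.8 CPM in day 4 CTRL and 27.8 to 141 CPM in day 4 EXP, where EXP 1 stood far above the rest. Its day 4 estimate was 1.35 on the log2 scale (SE 0.49, adjusted p = 0.0531).

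**Figure D4:**
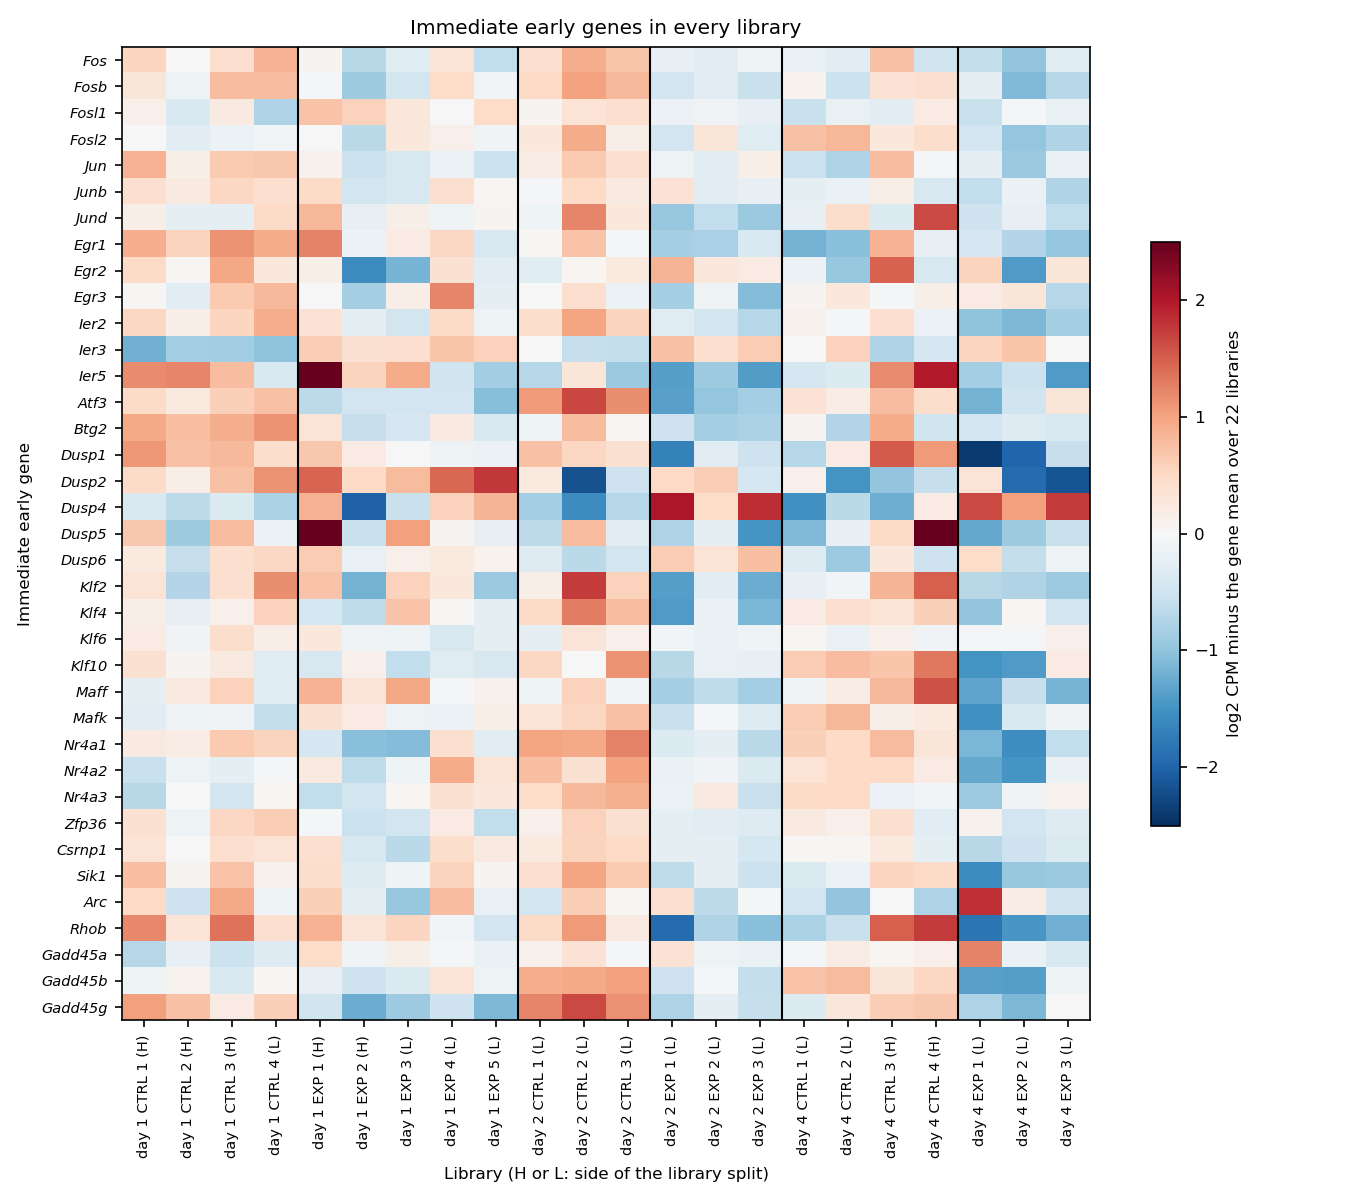
Log2 CPM of the 37 members (rows) in the 22 libraries (columns), each row centred on its mean over all libraries; red is above and blue below that mean, black lines divide the groups, and H or L marks the side of the library split. The day 2 and day 4 EXP columns are blue for most members, and Ier3, Dusp4 and Dusp6 run the other way on day 2.

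Whether the expander effect differed between days was tested directly. A joint test over the 3 days called 6 members, where 8.82% of all genes were called: Maff (adjusted p = 0.0164), Nr4a2 (0.0200), Fosl2 (0.0210), Mafk (0.0210), Atf3 (0.0249) and Gadd45b (0.0254). For Maff, Mafk, Nr4a2, Fosl2 and Gadd45b the day 1 estimate was near or above 0 and the day 4 estimate clearly below. Atf3 differed in another way, with its lowest fold change on day 2. Between days 1 and 4 the effect became lower for 6 members and higher for none (5.18% of all genes became lower, 8.16% higher). The largest shifts among these 6 were -2.17 (SE 0.47, adjusted p = 0.00615) for Maff and -1.69 (SE 0.40, adjusted p = 0.0107) for Nr4a2 on the log2 scale, followed by -1.39 for Fosl2, -1.39 for Mafk and -1.34 for Gadd45b. Ier3 completed the 6, since its rise changed by -1.01 from day 1 to day 4 (SE 0.33, adjusted p = 0.0437). With the library split as a covariate the joint test called 7 members, the 6 of the joint test and Fosl1 (10.3% of all genes), and the 6 members whose effect became lower between days 1 and 4, Ier3 included, were called again, Maff with a change of -2.01. Among the 15 low-side libraries alone, where day 1 CTRL has 1 library that is assumed to vary like the other groups, edgeR called no member in the joint test (0.262% of all genes). There 13 members had an unadjusted p under 0.05, as did 13.6% of all genes, and the change from day 1 to day 4 was -1.78 for Maff and -1.74 for Nr4a2. limma voom called 7 members in the joint test (13.2% of all genes) and DESeq2 called 6 (14.8%). With a replicate block edgeR called 3, namely Fosl2, Atf3 and Maff (2.28%).

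No member passed the test of day 2 against day 1 by edgeR, where 2.96% of all genes did. At an unadjusted p under 0.05 there were 15 members and 17.9% of all genes. No member, and no gene at all, passed that of day 4 against day 2, where 4 members and 6.69% of all genes had an unadjusted p under 0.05. The effects of different days share no libraries, but the day 4 CTRL group holds the 2 high libraries of the split and day 4 EXP none.

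Followed within the EXP arm, 8 members changed over the days (14.3% of all genes): Fosl1, Ier2, Ier5, Dusp1, Maff, Nr4a2, Sik1 and Rhob. Between day 1 and day 4 EXP, 9 members fell and none rose, where 6.87% of all genes fell and 12.1% rose. They were Fosl1 (-0.67), Fosl2 (-0.68), Ier2 (-1.03), Dusp1 (-1.58), Dusp2 (-2.18), Maff (-1.50), Nr4a2 (-1.09), Sik1 (-1.29) and Rhob (-1.80), with the log2 change in brackets. Dusp2 was scarce, at 0.945 ± 0.334 CPM per kb of exon in day 1 EXP (SD, n = 5) and 0.202 ± 0.243 in day 4 EXP (n = 3). No member passed in day 2 against day 1 EXP (2.63% of all genes, with 12 members and 18.5% of all genes at an unadjusted p under 0.05) or in day 4 against day 2 EXP (0.387%, with 4 members and 10.4% at an unadjusted p). Day 1 EXP holds 2 high-side libraries and day 4 EXP none, and Ier5, Rhob, Dusp1, Maff and Fosl1 vary with the split score within groups. With the split as a covariate 6 members changed over the days in EXP (11.7% of all genes), without Fosl1, Ier5 and Dusp1 and with Fosl2 added, and 9 fell from day 1 to day 4, where Gadd45b took the place of Fosl1. Among the low-side EXP libraries alone (3 a day), Maff, Sik1 and Rhob changed over the days (4.25% of all genes). There 6 members fell from day 1 to day 4 and none rose: Fosl2 (-0.87), Ier2 (-1.03), Maff (-1.46), Nr4a2 (-1.32), Sik1 (-1.35) and Rhob (-1.58). The count of 8 was 3 without the filter on low counts (5.76% of all genes), 3 without EXP 1 of day 1 (9.69%) and 4 without EXP 2 of day 4 (7.48%). It was 5 without EXP 3 of day 1 (11.7%), EXP 1 (11.6%) or EXP 3 (11.7%) of day 2, or EXP 1 of day 4 (9.08%). Without EXP 3 of day 4 it was 11 (18.6%).

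Within the CTRL arm no member passed the edgeR test over the 3 days, where 0.291% of all genes did. At an unadjusted p under 0.05 there were 12, among them Egr1, Btg2, Atf3 and Gadd45b, and 14.2% of all genes. The CTRL groups hold 3, 0 and 2 high-side libraries on days 1, 2 and 4. With the split as a covariate no member passed either (0.165% of all genes). There 15 members and 13.1% of all genes had an unadjusted p under 0.05. Other fits called 9 by limma voom (3.43% of all genes), 2 by DESeq2 (2.96%) and 3 by edgeR on the CTRL libraries alone (2.03%). Without CTRL 3 of day 4 the count was 2 (0.526%). The Egr1 estimate in CTRL from day 1 to day 4 was -1.04 on the log2 scale (SE 0.38, adjusted p = 0.220), and that of Gadd45b from day 1 to day 2 was 1.04 (SE 0.26, adjusted p = 0.0781).

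Members varied only loosely together within groups. The median correlation between 2 members, after group means were removed, was 0.19 over 666 pairs and 22 libraries, and the median correlation of a member with the mean of the others was 0.44. Sik1 (0.79), Klf2 (0.77), Egr1 (0.76), Fosb (0.74) and Jun (0.73) followed the others most closely. Ier3 ran against them (-0.45). These values share libraries and scaling and are given as a description.

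Some members also followed the library split. Ier5 (0.87), Rhob (0.83), Dusp1 (0.74), Maff (0.70), Fosl1 (0.62) and Dusp5 (0.62) correlated with the split score within groups, and Nr4a3 ran against it (-0.64). On day 4 the 2 CTRL libraries on the high side had a mean member level of 7.17 and 7.19, and the 2 on the low side 6.69 and 6.73, all above the 3 EXP libraries, which reached 6.38. Among the low-side libraries of day 4 alone (2 CTRL and 3 EXP), all 14 called members kept their sign, 11 members and 18.4% of all genes had an unadjusted p under 0.05, and 0 members were called by edgeR, where 1 of 16462 genes was (0.00607%). The estimate for Dusp1 was then -1.24 in place of -2.18, for Rhob -0.82 in place of -2.38, for Gadd45g -0.55 in place of -0.91 and for Maff -1.05 in place of -1.77. Nr4a1 (-1.59 and -1.61), Gadd45b (-1.57 and -1.41), Fosl2 (-1.51 and -1.31) and Ier2 (-1.02 and -1.08) differed less between the 2 fits. Among the high-side libraries of day 1 (3 CTRL and 2 EXP), all 9 called members kept their sign and 4 were called, where 13.9% of 15942 genes were. With the split as a covariate in the whole fit, 8, 20 and 14 members were called on days 1, 2 and 4. The shares of all genes in that fit are not given here.

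Upstream of the members, of 23 genes of the MAP kinase cascade, 5 rose and 3 fell on day 1, 1 rose and 1 fell on day 2 and 1 rose and 5 fell on day 4. Over all genes tested, 13.9% rose and 14.7% fell on day 1, and 7.72% rose and 5.71% fell on day 2. The day 4 shares were 12.8% and 9.66%. None of the related lists was tested against these shares. Egfr, the EGF receptor, stood at 218 CPM in CTRL and 354 CPM in EXP on day 4 (log2 fold change 0.70, SE 0.24, adjusted p = 0.0402). Mapkapk2, a kinase downstream of p38, stood at 15.6 CPM in CTRL and 44.6 CPM in EXP on day 1 (log2 fold change 1.52, SE 0.26, adjusted p = 2.48e-04). Of the 15 tested of 16 SRF and CREB activators, 1 rose and 2 fell on day 1, 1 rose and 1 fell on day 2 and 1 rose and 4 fell on day 4. Elk3, an SRF partner, stood at 6.82 CPM in CTRL and 27.2 CPM in EXP on day 2 (log2 fold change 1.99, SE 0.40, adjusted p = 0.00319), while Crem, a CREB relative with repressor isoforms, stood at 59.4 CPM in CTRL and 23.4 CPM in EXP on day 4 (log2 fold change -1.35, SE 0.30, adjusted p = 0.00436). The median log2 fold change of these 15 was 0.06 for day 1, -0.16 for day 2 and -0.37 for day 4, and that of the cascade 0.32 for day 1, -0.24 for day 2 and -0.22 for day 4. Over all genes tested the median was 0.02, 0.02 and 0.03.

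Of 13 feedback inhibitors of ERK outside the members, 2 rose and 1 fell on day 1, 0 rose and 2 fell on day 2 and 1 rose and 4 fell on day 4. In either direction, 28.6%, 13.4% and 22.5% of all genes tested were called on days 1, 2 and 4. Spry1, a Sprouty inhibitor of receptor tyrosine kinase signalling, fell on each day, with 42 CPM in CTRL and 22.7 CPM in EXP on day 1 (log2 fold change -0.89, SE 0.27, adjusted p = 0.0160) and 32.3 CPM in CTRL and 14.2 CPM in EXP on day 4 (log2 fold change -1.19, SE 0.32, adjusted p = 0.0117). Errfi1, an inhibitor of the EGF receptor, stood at 2628 CPM in CTRL and 1506 CPM in EXP on day 4 (log2 fold change -0.80, SE 0.25, adjusted p = 0.0252), and Dusp10, a phosphatase of p38 and JNK, at 29 CPM in CTRL and 60.3 CPM in EXP on day 4 (log2 fold change 1.05, SE 0.33, adjusted p = 0.0275). Of the 17 tested of 18 partners and repressors of EGR, AP-1 and ZFP36, 2 rose and 2 fell on day 1, 0 rose and 3 fell on day 2 and 1 rose and 8 fell on day 4, with medians of 0.21 for day 1, -0.53 for day 2 and -0.63 for day 4. Batf, an AP-1-like factor, stood at 20.6 CPM in CTRL and 5.94 CPM in EXP on day 2 (log2 fold change -1.80, SE 0.45, adjusted p = 0.0116), and Btg1, a relative of Btg2, at 427 CPM in CTRL and 77.1 CPM in EXP on day 4 (log2 fold change -2.47, SE 0.72, adjusted p = 0.0207).

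Of 32 other rapid and delayed early genes, 8 rose and 4 fell on day 1, 3 rose and 7 fell on day 2 and 5 rose and 15 fell on day 4, with medians of 0.19 for day 1, -0.44 for day 2 and -0.61 for day 4. In either direction, 28.6%, 13.4% and 22.5% of all genes tested were called on days 1, 2 and 4. The cyclooxygenase gene Ptgs2 and the neutrophil chemokine gene Cxcl1 rose. Ptgs2 stood at 207 CPM in CTRL and 1265 CPM in EXP on day 2 (log2 fold change 2.61, SE 0.49, adjusted p = 0.00187), and Cxcl1 at 602 CPM in CTRL and 6126 CPM in EXP on day 4 (log2 fold change 3.35, SE 0.40, adjusted p = 8.78e-05). Socs3, the feedback inhibitor of STAT signalling, stood at 1127 CPM in CTRL and 457 CPM in EXP on day 1 (log2 fold change -1.30, SE 0.26, adjusted p = 9.43e-04), and Irf1, an interferon regulatory factor, at 326 CPM in CTRL and 153 CPM in EXP on day 2 (log2 fold change -1.09, SE 0.29, adjusted p = 0.0162). Cebpd, an acute-phase bZIP factor, stood at 270.0 CPM in CTRL and 15.3 CPM in EXP on day 4 (log2 fold change -4.15, SE 0.85, adjusted p = 0.00325). Errfi1 is in this list as well as among the ERK inhibitors.

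Per kilobase of exon, the scale on which members can be compared with each other, Fos was the most abundant in day 1 CTRL at 986 ± 240.3 CPM per kb (SD, n = 4). Dusp1 followed at 897 ± 163 and Junb at 842 ± 71.5 CPM per kb, and the 3 lie within their spread of each other. Egr1 at 453 ± 70.9, Atf3 at 399 ± 56.8, Ier3 at 382 ± 40.9 and Jun at 376 ± 74.3 CPM per kb came next, again with overlapping spreads. At the other end were Egr3 at 1.35 ± 0.467, Dusp4 at 1.24 ± 0.179 and Dusp2 at 0.615 ± 0.187 CPM per kb. By day 4 in EXP, Ier3 stood at 1021 ± 238 CPM per kb (n = 3), above Fos at 462 ± 105 and Junb at 457 ± 102 CPM per kb. Exon lengths come from GENCODE M21, and 10 members, among them Dusp1, Zfp36, Csrnp1, Fosl1 and Gadd45a, have exons that overlap a gene on the other strand.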

How the data were processed

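RNA was measured in 22 libraries of sorted mouse skin fibroblasts in 6 groups of day and arm, mapped by the labels. The authors deposited 1 table of raw counts per Ensembl gene. Per the submitters' processing notes Trimmomatic and the mm39 build were used. Aligner, counter, annotation and strand setting are not given in the sources used here, so overlapping genes may share reads. Symbols came from GENCODE M21, which named 52081 of 55414 IDs. All 37 members matched, and of the related genes only Rps6ka4 did not.

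Counts were fitted with edgeR 4.0.16 in R 4.3.3: filterByExpr (minimum count 10), TMM, robust quasi-likelihood fit on 6 group means (16 residual degrees of freedom), Benjamini-Hochberg within a contrast, threshold 0.05. Log2 CPM used a prior count of 2. Promoter letters came from RefSeq (GRCm38.p6), and no coordinates on mm39 were used. The members and lists were chosen with earlier results of these data known. Members printed library by library were 10 fixed genes and, per day, the 3 called members with the smallest p in each direction and the 3 with the smallest p for a day-dependent effect. From related lists, up to 2 called genes per direction and day with the largest fold change and a mean of at least 5 CPM could be named.

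Alternatives were other scalings, no filter, a fold threshold, only the compared libraries, a replicate block, the library split as a covariate, limma 3.58.1 voom, DESeq2 1.42.0 and leaving out each library. Fits within 1 side of the split were added after seeing the data. On simulated counts for day 1 over 17126 genes, edgeR recovered 26% of 2-fold and 69% of 4-fold changes, with 5 false among 100 calls. Replicates of a group differed beyond counting noise in every pair (chi-square per degree of freedom at least 29.3). Figures were drawn with matplotlib 3.10.9.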

Additional observations from a re-analysis of the deposited data

Results flagged for a closer look

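Single libraries stood far above the rest of their group for 4 genes. In EXP 1 of day 1, Jund was at 28 CPM (other libraries of the group 13.6 to 17.5 CPM), Ier5 at 462 CPM (43.7 to 153 CPM) and Dusp5 at 24.2 CPM (2.30 to 7.04 CPM). In CTRL 3 of day 4, Egr2 was at 92.5 CPM (17.2 to 30.02 CPM), and in CTRL 4 of day 4, Dusp5 was at 22.6 CPM (1.55 to 4.82 CPM). These are 5 of 111 groups of values examined with Dixon's criterion, where chance gives 5.55, and each of these 3 libraries belongs to the 7 in which the Rnf10 module stood high.

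The expander effect differed between days for 6 members by the joint edgeR test over all 17554 genes: Fosl2 (adjusted p = 0.0210), Atf3 (0.0249), Maff (0.0164), Mafk (0.0210), Nr4a2 (0.0200) and Gadd45b (0.0254). With a replicate block 3 of these were still called, namely Fosl2, Atf3 and Maff (2.28% of all genes). In Maff the log2 fold change went from 0.39 on day 1 to -1.77 on day 4, and in Atf3 from -2.37 on day 2 to -0.78 on day 4.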

How the results depend on the processing

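No member's fold change that was called reversed its sign under any alternative run. Over the planned settings and the removal of single libraries, 4 of the 9 calls of day 1, 6 of the 16 of day 2 and 7 of the 14 of day 4 were kept throughout. The members called were 9, 16 and 14 on days 1, 2 and 4, where 28.6%, 13.4% and 22.5% of all genes were. They became 8 on day 2 with unscaled library totals, where 4631 of all genes were called in place of 2359. The members called were 25 on day 2 and 7 on day 4 in fits of only the compared libraries. They were 4 on day 1 with an absolute log2 fold change of at least 1. For single days, the shares of all genes in these last fits, without single libraries and with the replicate block are not given here. Those counts are therefore not set against all genes. Within the high side of the library split the day 1 count was 4 (13.9% of all genes), and within the low side the day 4 count was 0 (0.00607%), in fits with fewer libraries. Change over days in EXP went from 8 to 3 without the filter and to 3 within the low side, where the day-dependent effect went from 6 to 0. In CTRL it went from 0 to 3 in a fit of the CTRL libraries alone, 9 by limma voom and 2 by DESeq2. The cause of these shifts was not tested. Leaving out each library in turn gave 6 to 11 members on day 1, 7 to 17 on day 2 (7 without CTRL 2 or EXP 1, 8 without EXP 3) and 10 to 18 on day 4. It gave 5 to 8 for the day-dependent effect (5.13% to 14% of all genes). For the change over days it gave 3 to 11 in EXP (7.48% to 18.6%) and 0 to 2 in CTRL (0.0285% to 0.526%). CTRL and EXP libraries that share a number and day did not deviate together (correlations from -0.066 to 0.16 over 10 pairs, 3 over 0.1), and 9 of 20 libraries correlated best with their own number, so the numbers were not taken to pair samples. With a replicate block the counts were 10, 17 and 17 on days 1, 2 and 4, and 3 in place of 6 for the day-dependent effect, where Mafk (adjusted p = 0.0790), Nr4a2 (0.0732) and Gadd45b (0.0973) were lost. Of the single-day calls, the block ended those of Mafk and Csrnp1 on day 2, and the day 4 value of Rhob was -1.55 with it. The block was nested in day, so it could not be fitted for changes over days within an arm. How depth bears on the calls was not tested.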

Other observations

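Outside the list, the 5 genes whose log2 CPM most closely followed the mean of the 37 members, after group means were removed, were Acp6 (r = 0.90), Midn (0.88), Ulk3 (0.88), Rspo3 (0.83) and Wasf1 (0.82), over 22 libraries. The points share libraries and scaling.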
